A study of Homo sapiens with 8 samples.

Results

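The genes described here encode the subunits of the mitochondrial respiratory chain and of ATP synthase. They were chosen by symbol, as the protein-coding genes whose names begin with MT-ND, MT-CO, MT-ATP, MT-CYB, NDUFA, NDUFB, NDUFC, NDUFS, NDUFV, SDH, UQCR, UQCC, COX4 to COX8, ATP5F or ATP5M, together with CYC1 and without the assembly factors NDUFAF and SDHAF. This gave 105 of the 20263 genes in the table, 92 encoded in the nucleus and 13 in mitochondrial DNA. By complex, 38 nuclear members were assigned to complex I, 4 to complex II, 10 to complex III, 19 to complex IV and 15 to complex V, and 6 UQCC genes, which encode assembly factors of complex III, were kept apart. The mitochondrial members were 7 of complex I, 1 of complex III, 3 of complex IV and 2 of complex V. RNA was sequenced from PANC-1, an established line of human pancreatic ductal carcinoma cells, after 24 h with 10 μM eupalinolide B (EB), a sesquiterpene lactone of Eupatorium lindleyanum, or with the vehicle dimethyl sulfoxide (DMSO). There were 4 libraries per group, described as biological replicates, although triplicates are also mentioned. The table heads its columns C or H with a number, and C was read as DMSO and H, a letter that no source explains, as EB. All results come from 1 cell line, 1 dose and 1 time.

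The respiratory chain passes electrons from NADH and succinate to oxygen. Complex I takes electrons from NADH and complex II from succinate, both hand them to ubiquinone, complex III passes them on to cytochrome c and complex IV to oxygen. Complexes I, III and IV pump protons across the inner membrane, and complex V, the ATP synthase, uses the gradient to make ATP. Complex II is wholly nuclear encoded, whereas the other complexes join nuclear subunits, made in the cytosol and imported, to a few hydrophobic subunits made inside the organelle from its own DNA. The mitochondrial genes are transcribed as long polycistronic RNAs from both strands, which are then cut into single messengers.

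Values are TPM, a gene's share of a library's transcripts after correction for length, so that levels of different genes can be compared per length. TPM have a fixed sum in each library, and the number of reads behind them is unknown. The number of genes at a TPM of at least 1 was between 11353 and 11894 per library. Differences are log2 fold changes of TPM + 1, EB minus DMSO, from limma with Benjamini-Hochberg adjustment over the 11725 genes tested, and a gene is called higher or lower at an adjusted p under 0.05. Of all genes tested, 15.2% were called higher and 25.1% lower with EB, 40.3% in all. At an unadjusted p under 0.05 by limma, 2280 of the 11725 were higher and 3580 lower. DMSO replicate 4 stood apart, with 39.0% of its TPM on the 13 mitochondrial genes. Of 5 ductal markers, KRT8, KRT18 and KRT19 were abundant, with a summed TPM over the list of 991 to 1454 with DMSO and 3209 to 3593 with EB, while KRT7 and EPCAM stayed under a TPM of 1 in every library. The part of this change in the results was not tested. The 4 acinar markers were at 0 in all libraries. Leukocyte markers summed to at most 0.601 and endothelial markers to at most 0.305 TPM.

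The nuclear-encoded members were more abundant with EB and the mitochondrially encoded members were not. Summed over the 92 nuclear genes, TPM were 16990, 15044, 14810 and 11413 in DMSO replicates 1 to 4 and 20858, 18173, 21086 and 17250 in EB replicates 1 to 4. Every EB library lay above every DMSO library. The same held when the nuclear members were taken as a percentage of the nuclear-encoded TPM alone, at 1.93% ± 0.083 (SD, n = 4) with DMSO and 2.26% ± 0.137 (SD, n = 4) with EB. The 13 mitochondrial genes took 17.0%, 21.1%, 21.0% and 39.0% of the TPM in the DMSO libraries and 11.6%, 14.7%, 12.2% and 20.3% in the EB libraries. Here the groups overlapped, because EB replicate 4 lay above DMSO replicate 1, and in each group replicate 4 had the highest share. In shares of a fixed sum from bulk RNA, fewer mitochondria, less RNA in each and more RNA from nuclear genes cannot be told apart. The sum of mitochondrial over nuclear TPM ranged from 10.0 to 34.2 with DMSO and from 5.58 to 11.8 with EB.

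**Figure D1:**
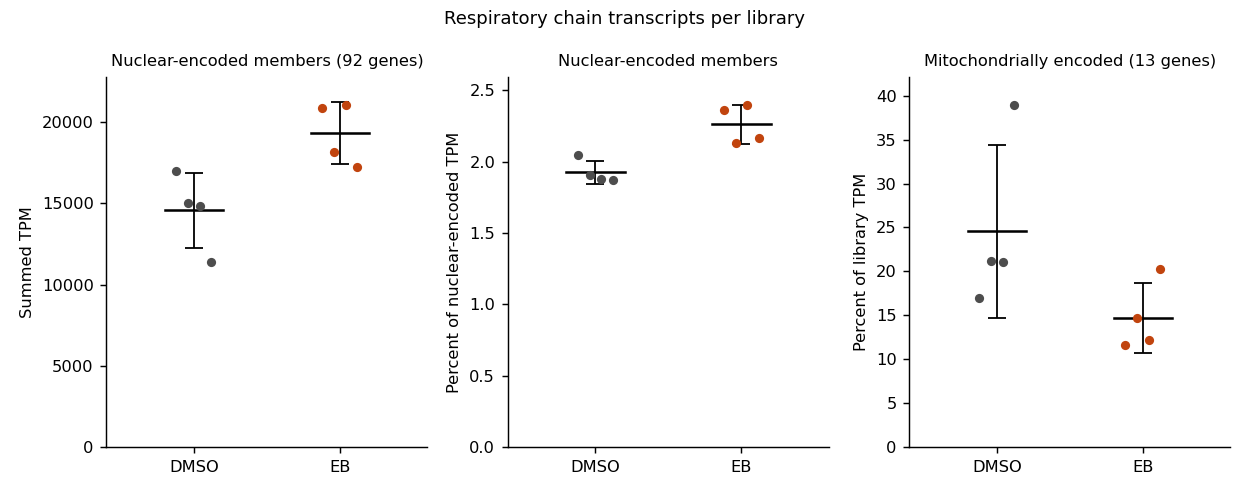
Summed TPM of the 92 nuclear-encoded members, their percentage of the nuclear-encoded TPM, and the percentage of library TPM on the 13 mitochondrially encoded genes, by group. Points are libraries in replicate order from left to right, lines are means and bars SD (n = 4); the EB points lie above all DMSO points in the first 2 panels and overlap them in the third, where DMSO replicate 4 reaches 39.0%.

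Of the 96 members tested, 83 were nuclear and 13 mitochondrial. Among the nuclear members 34 were called higher and 2 lower, which is 41.0% and 2.41% of them, beside 15.2% and 25.1% of all genes tested. Of the 83, 72 had a log2 fold change above 0, where 42.7% of all genes did, and the median was 0.44, against −0.11 for all genes tested. For 33 nuclear members all 4 EB values exceeded all 4 DMSO values and for 1 all were lower, where 16.6% and 20.3% of all genes tested did so. Among the mitochondrial members 0 were called higher by limma, also at an unadjusted p under 0.05, and 6 were called lower, with a median of −0.65. Only MT-ND4L passed an unadjusted p under 0.05 together with an absolute log2 fold change above 1.5. The other members changed by less than this. Among the 11725 genes tested, 63 passed the same thresholds as higher and 181 as lower.

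**Figure D2:**
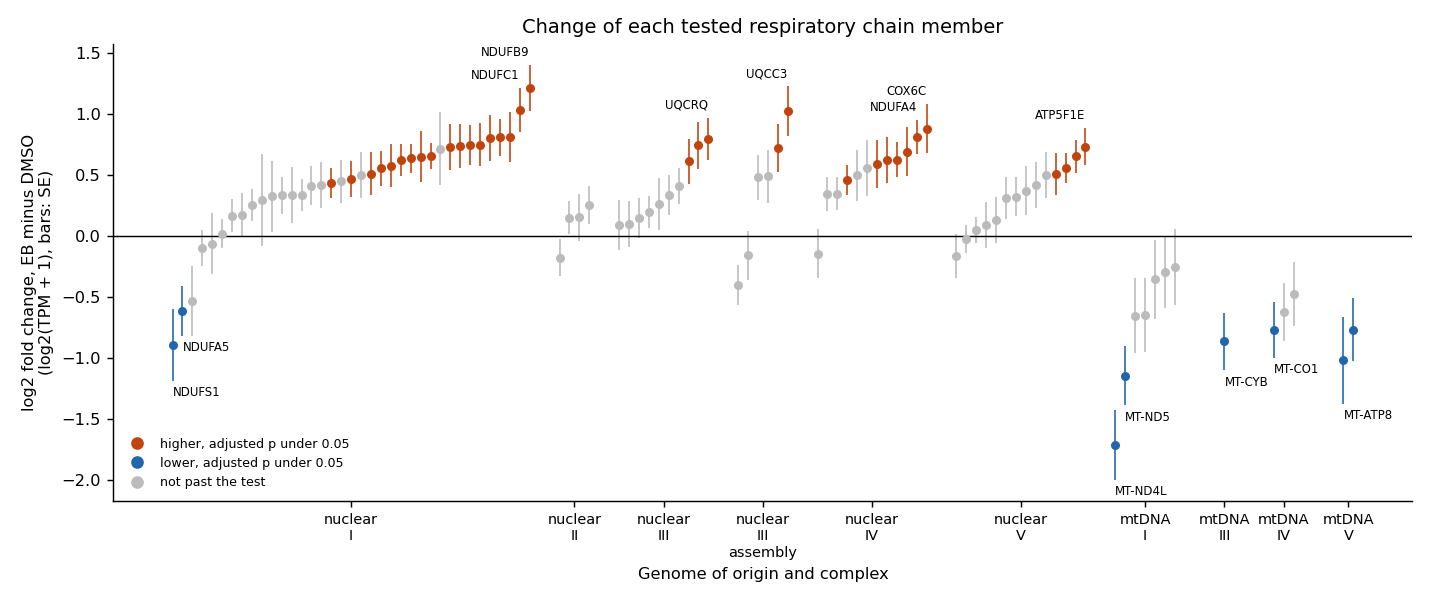
Log2 fold change of each tested member, EB minus DMSO on the log2(TPM + 1) scale, with its SE, sorted within complex and genome of origin. The nuclear members run from −0.89 (NDUFS1) to 1.22 (NDUFB9), and all 13 mitochondrially encoded members (mtDNA) lie below 0.

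Complex I is the largest complex, and its nuclear subunits moved apart. Of 37 tested, 18 were called higher, 2 lower and 17 neither, with a median of 0.47. NDUFB9, NDUFC1, NDUFB8, NDUFA8 and NDUFAB1 had the largest rises. The first 4 encode accessory subunits, which surround the catalytic core, and NDUFAB1 encodes the mitochondrial acyl carrier protein, which also serves fatty acid synthesis. NDUFB9 lies at 124539101 to 124580648 on chromosome 8 (all positions are of hg38). Its TPM was 93.0, 81.4, 85.7 and 71.8 in the DMSO libraries and 172.9, 271.4, 202.7 and 147.0 in the EB libraries. The lowest EB value was well above the highest DMSO value, and the log2 fold change was 1.22 (SE 0.19, limma adjusted p = 0.00125). NDUFC1, on chromosome 4 from 139266880 to 139302551, had a TPM of 61.9, 44.8, 37.5 and 39.4 with DMSO and 98.9, 80.1, 110.9 and 85.4 with EB, again without overlap, and rose by 1.03 (SE 0.18, limma adjusted p = 0.00225). The log2 fold changes of NDUFB8, NDUFA8 and NDUFAB1 were 0.81, 0.81 and 0.80.

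Both complex I members that were called lower have long annotated transcripts. NDUFS1, which encodes the iron-sulfur subunit next to the NADH site, lies on chromosome 2 from 206114817 to 206159509 and has an annotated transcript of 11660 nucleotides. Its TPM was 21.1, 50.7, 22.9 and 16.9 with DMSO and 12.0, 16.6, 13.5 and 11.3 with EB. The lowest DMSO value, 16.9, and the highest EB value, 16.6, nearly met, and DMSO replicate 2 was far above the others. The log2 fold change was −0.89 (SE 0.29, limma adjusted p = 0.0349). NDUFA5, an accessory subunit with a transcript of 5496 nucleotides, fell by 0.62 (SE 0.20, limma adjusted p = 0.0356), with overlapping groups. Neither gene was called without DMSO replicate 3, EB replicate 3 or EB replicate 4, nor after correction for transcript length and GC content, a trend fitted across genes in each library and subtracted, where their log2 fold changes were −0.33 and −0.25. Leaving out EB replicate 1 also ended the call of NDUFS1, and leaving out DMSO replicate 1, DMSO replicate 4 or EB replicate 2 that of NDUFA5.

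The catalytic subunits were set beside the others in a grouping made after the values were seen. Among the nuclear core subunits of complex I, which hold the flavin and the iron-sulfur clusters or stand close to them, NDUFV2 rose by 0.66 and NDUFS3 by 0.58 on the log2 scale and NDUFS1 fell. The log2 fold changes of NDUFS7, NDUFS8 and NDUFV1 were 0.50, 0.33 and −0.06, none past the test. Of the 30 other nuclear subunits of this complex 16 were called higher and 1 lower. Over complexes I, II, III and V and the nuclear subunits of complex IV, the catalytic core had 16 tested genes, with 2 higher, 1 lower and a median of 0.16, and the other subunits had 61, with 30 higher, 1 lower and a median of 0.50. The median transcript was 1324 nucleotides in the first group and 678 in the second, and its part in this difference was not tested. After the correction for length and GC content the medians were −0.03 and 0.23.

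Complex II, succinate dehydrogenase, gave no call in either direction by limma on the values as deposited, also at an unadjusted p under 0.05. SDHA encodes the flavoprotein that oxidises succinate, SDHB the iron-sulfur subunit, and SDHC and SDHD the membrane anchor that binds heme and ubiquinone. The TPM of SDHA was 414.4, 382.2, 367.7 and 280.5 with DMSO and 334.6, 342.2, 319.7 and 271.8 with EB, with overlapping groups (log2 fold change −0.18, SE 0.15). The log2 fold changes of SDHB, SDHC and SDHD were 0.15, 0.15 and 0.25, with SE 0.13, 0.19 and 0.16. These values lie above the median of all genes tested, and their sign depended on the scaling for SDHB and SDHC. SDHA was called lower with quantile normalization, at −0.40, and with nuclear genes alone, at −0.36. Median-ratio scaling called 2 of the 4 subunits higher, where 25.9% of all genes were.

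Complex III had 3 of 10 nuclear members called higher and none lower, and no member had a log2 fold change below 0. UQCRQ, UQCRH and UQCR11 encode small subunits without a redox centre. UQCRQ, on chromosome 5 from 132866630 to 132868847, had a TPM of 250.5, 203.2, 208.0 and 153.8 with DMSO and 397.7, 311.5, 395.3 and 306.3 with EB. The groups did not overlap, with a log2 fold change of 0.80 (SE 0.17, limma adjusted p = 0.00585). UQCRH, which encodes the hinge protein near cytochrome c1, was the most abundant nuclear member of this complex, at 553.6 ± 130.9 TPM (SD, n = 4) with DMSO and 911.7 ± 118.5 with EB, and rose by 0.74. Its near-identical copy UQCRHL was listed at a mean of 4.11 and 4.30 TPM, and how the authors' counting divided reads between the copies is not known, so both values are uncertain. UQCR11 rose by 0.61. The redox subunits CYC1 and UQCRFS1, the Rieske protein, had log2 fold changes of 0.15 and 0.41 and were not called.

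Of the 6 UQCC assembly factors, which help to assemble complex III around cytochrome b, 2 were called higher and none lower by limma. At an unadjusted p under 0.05 these counts were 4 and 1, beside 2280 and 3580 of the 11725 genes tested. UQCC3, on chromosome 11 from 62670273 to 62673686, had a TPM of 35.2, 35.3, 28.9 and 20.6 with DMSO and 74.0, 51.9, 69.8 and 50.8 with EB, and rose by 1.03 (SE 0.20, limma adjusted p = 0.00387). UQCC4 rose by 0.72, from 14.8 ± 3.98 TPM (SD, n = 4) to 24.6 ± 2.95. In both genes the groups did not overlap. The log2 fold change of UQCC6 was −0.40, not past the test as deposited, and it was called lower with nuclear genes alone (−0.58), after the correction (−0.56) and without DMSO replicate 4 (−0.50).

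Complex IV, cytochrome c oxidase, had 7 of 12 tested nuclear genes called higher and none lower, and a median of 0.57. At an unadjusted p under 0.05, 11 were higher and 0 lower by limma, beside 2280 and 3580 of the 11725 genes tested. The nuclear subunits of this enzyme surround a catalytic core that is made in the organelle. COX6C, on chromosome 8 from 99873200 to 99893707, had a TPM of 111.5, 94.1, 95.9 and 111.5 with DMSO and 157.9, 143.0, 276.3 and 209.2 with EB. The EB values were all higher but spread widely, and the log2 fold change was 0.88 (SE 0.20, limma adjusted p = 0.00784). NDUFA4, first described with complex I and now counted as a subunit of complex IV, lies on chromosome 7 from 10931943 to 10940153. Its TPM was 79.5, 71.1, 64.3 and 64.7 with DMSO and 138.9, 106.0, 139.0 and 112.9 with EB (log2 fold change 0.82, SE 0.14, limma adjusted p = 0.00207). COX6B1, COX7A2 and COX5B rose by 0.69, 0.63 and 0.62, and COX4I1 and COX6A1, among the most abundant nuclear members, by 0.59 and 0.46. The count of complex IV moved with single libraries and with the correction. It was 3 without EB replicate 3, 4 without DMSO replicate 3 or EB replicate 1, and 4 after the correction for length and GC content. Without EB replicate 3, DMSO replicate 3 or EB replicate 1, 10.8%, 12.0% and 11.2% of all genes were called higher. With that correction 24.3% of all genes were called higher.

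Several subunits of complex IV have a partner that is restricted to certain tissues, and in PANC-1 the partner was at or near 0 in each case. COX4I2, COX6A2 and COX7B2 were listed at 0 in all 8 libraries. COX6B2, a testis form, had a mean of 0.759 TPM with DMSO and 0.609 with EB beside 239.8 and 378.8 for COX6B1. COX7A1, the form of heart and muscle, had 0.181 and 0.134 TPM beside 70.7 and 109.1 for COX7A2. NDUFA4L2, a partner of NDUFA4 that responds to low oxygen, had 0.461 and 0.192 TPM, and COX8C was above 0 in 1 library alone. These genes were too low to be tested. COX7A2L, a paralogue that joins complexes III and IV into a supercomplex, was expressed at 70.4 ± 20.8 TPM (SD, n = 4) with DMSO and 61.5 ± 3.03 with EB, a log2 fold change of −0.14 that was not past the test.

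Of the 14 tested nuclear members of complex V, 4 were called higher and none lower by limma, and at an unadjusted p under 0.05 these counts were 6 and 0. At the unadjusted threshold 2280 of the 11725 genes tested were higher and 3580 lower. ATP5F1E encodes the epsilon subunit in the central stalk, and ATP5MG, ATP5MJ and ATP5MK encode small proteins of the membrane part. ATP5F1E, on chromosome 20 from 59025475 to 59032345, had a TPM of 59.9, 53.3, 49.0 and 43.2 with DMSO and 97.1, 74.0, 98.5 and 75.3 with EB, without overlap (log2 fold change 0.73, SE 0.15, limma adjusted p = 0.00517). ATP5MK rose by 0.65, ATP5MG by 0.56 and ATP5MJ by 0.51, the last with overlapping groups. The subunits alpha, beta and gamma that make up the rotary catalytic core, ATP5F1A, ATP5F1B and ATP5F1C, had log2 fold changes of 0.37, 0.13 and 0.05 and were not called. The 3 genes for the c subunit of the rotor, ATP5MC1, ATP5MC2 and ATP5MC3, encode the same mature protein, and their log2 fold changes were 0.50, −0.16 and 0.31, none past the test as deposited. ATP5MC2 was called lower with quantile normalization (−0.38), with nuclear genes alone (−0.35), after the correction for length and GC content (−0.54) and without DMSO replicate 4 (−0.35). ATP5MF, the most abundant nuclear member at 914.3 ± 60.6 TPM (SD, n = 4) with DMSO, was at 898.5 ± 56.2 with EB. After the correction 4 members of complex V were called higher and 3 lower, the latter being ATP5MC2, ATP5MF (−0.43) and ATP5F1C (−0.23). These are 28.6% and 21.4% of the tested members, near the 24.3% and 21.8% of all genes. The readthrough genes ATP5MF-PTCD1 and NDUFC2-KCTD14 share exons with members and reached at most 4.05 and 7.45 TPM, so their values are uncertain.

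**Figure D3:**
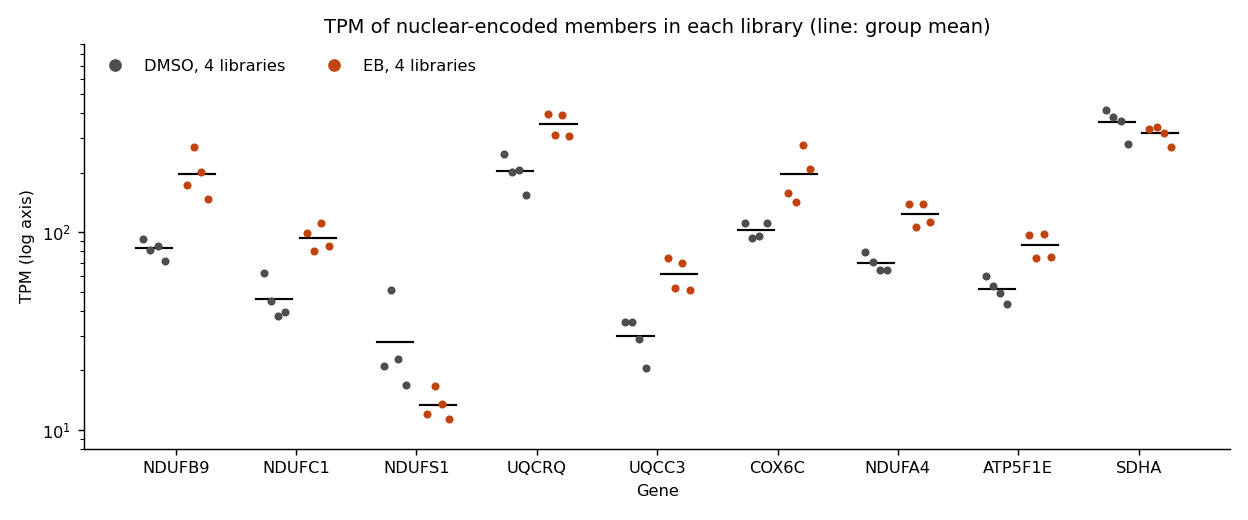
TPM on a log axis of 9 nuclear-encoded members in each DMSO and EB library, in replicate order from left to right within a group, with the group mean as a line. The groups do not overlap in the rising genes, touch closely in NDUFS1 (16.9 with DMSO and 16.6 with EB) and overlap in SDHA.

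The nuclear members have short transcripts, and short transcripts as a class were higher with EB. The median transcript of the members was 916 nucleotides, against 3222 for all nuclear genes tested, and across the 11685 nuclear genes with a length the log2 fold change fell with length (Spearman's rho −0.48, a description across genes that share libraries). Among nuclear genes of at most 1000 nucleotides 45.7% were called higher and 6.66% lower, and of the 45 members of that length 26 were higher, both members called lower being longer. The medians were 0.44 and 0.55. Among longer genes 13.1% were called higher, and of the 38 longer members 8 were, with medians of −0.14 and 0.25. Fitting the dependence on length and GC content in every library and subtracting it left 28 nuclear members called higher and 4 lower, where 24.3% and 21.8% of all genes were, and their median was 0.17, against 0.02 for all genes. Of the 34 members called higher as deposited, 23 remained. Lengths are of 1 annotated transcript per gene, and for NDUFA9, UQCRB and ATP5F1A this is 8356, 8459 and 5761 nucleotides, which raised their corrected log2 fold changes to 0.77, 0.71 and 0.78.

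The balance also moved with the scaling between libraries. With the mitochondrial genes removed and the nuclear TPM rescaled, 31 nuclear members were called higher, all among the 34, and 6 lower, where 12.3% and 41.3% of all genes were, and their median was 0.27 against −0.28. Median-ratio scaling called 58 higher and 1 lower, where 25.9% and 26.3% of all genes were. In all, 22 of the 34 were called higher under each of 4 scalings and corrections, namely median-ratio scaling, quantile normalization, nuclear genes alone and removal of the length and GC trend. All but UQCR11 of these, 21 genes, were also called with each library left out in turn. They include NDUFB9, NDUFC1, NDUFB8, NDUFA8, NDUFAB1 and NDUFV2 of complex I, UQCRQ and UQCRH of complex III, UQCC3 and UQCC4, COX6C, COX7A2 and NDUFA4 of complex IV, and ATP5F1E, ATP5MG and ATP5MK of complex V. The log2 fold change of all 34 stayed above 0 under every alternative tried. The 34 were picked as called higher in the same libraries that the alternatives refit, so these counts are no independent test. How many of the other genes called higher kept their call was not counted.

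**Figure D4:**
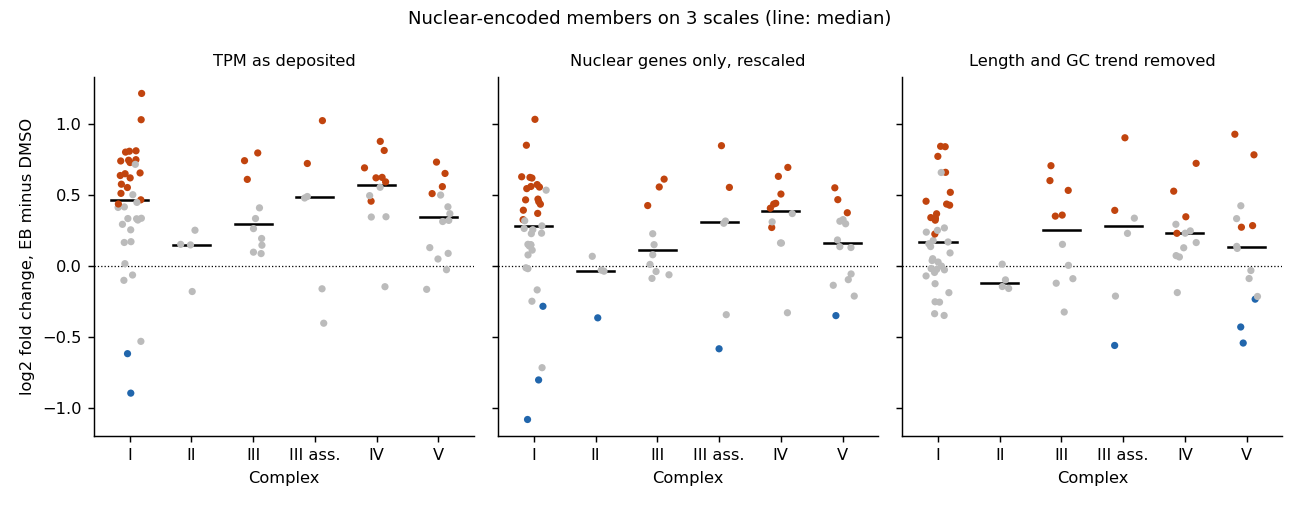
Log2 fold change, EB minus DMSO, of the 83 tested nuclear-encoded members by complex (III ass., the UQCC assembly factors) on 3 scales; points are genes spread sideways for legibility, orange called higher, blue called lower, grey neither, and the line is the median. The medians over all 83 genes are 0.44 as deposited, 0.27 for nuclear genes alone and 0.17 with the length and GC trend removed.

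The mitochondrial transcripts were by far the most abundant of the respiratory chain, with mean levels between 3931 TPM (MT-ND6) and 54880 TPM (MT-CO3) with DMSO, against at most 914.3 for a nuclear member. All 13 had a log2 fold change below 0, also with median-ratio scaling. MT-ND4L, MT-ND5 and MT-CYB, 3 of the 13, were the ones whose EB libraries all lay below the DMSO libraries. Of all genes tested, 20.3% did so. MT-ND4L encodes a small membrane subunit of complex I and lies on chromosome M from 10470 to 10766. Its TPM was 11576, 14962, 15370 and 26699 with DMSO and 4709, 6576, 3229 and 6188 with EB, a log2 fold change of −1.71 (SE 0.29, limma adjusted p = 0.00192). MT-ND5, which encodes a proton-pumping subunit of complex I, lies from 12337 to 14148. It had a TPM of 3885, 4834, 4711 and 8339 with DMSO and 2123, 2706, 1824 and 2942 with EB, and MT-ND5 fell by 1.14 (SE 0.24, limma adjusted p = 0.00561). MT-CYB, from 14747 to 15887, encodes cytochrome b, the mitochondrial subunit of complex III, and fell by 0.86, from 8427 ± 2892 TPM (SD, n = 4) to 4543 ± 1072.

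MT-ATP8, MT-CO1 and MT-ATP6 were also called lower, at log2 fold changes of −1.02, −0.77 and −0.77, but their groups overlapped, and the exact two-sided permutation test over the 70 assignments of libraries gave p = 0.0571 for each. The remaining genes were not called. MT-ND2, MT-ND4, MT-CO3 and MT-CO2 had log2 fold changes of −0.65, −0.65, −0.62 and −0.48, and MT-ND1, MT-ND3 and MT-ND6 of −0.36, −0.30 and −0.26. The calls rested in part on single libraries. Without EB replicate 3, MT-ND4L and MT-ND5 alone stayed, without EB replicate 1 these and MT-CYB did, and median-ratio scaling also left MT-ND4L and MT-ND5 alone. MT-ATP8 and MT-ATP6 were not called without DMSO replicate 2, DMSO replicate 3 or EB replicate 2 either, nor MT-ATP8 without DMSO replicate 4. With median-ratio scaling 15.4% of the mitochondrial members were called lower, beside 26.3% of all genes tested. Without EB replicate 3 these shares were 15.4% and 18.0%, and without EB replicate 1 they were 23.1% and 20.8%.

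Whether the mitochondrial transcripts moved together can be read from each gene's share of their sum, which does not depend on the nuclear genes. Shares have a fixed sum, so a larger share of some genes goes with a smaller share of others. In 7 of the 13 genes the shares of the EB and DMSO libraries did not overlap. MT-ND1, MT-ND3, MT-ND6 and MT-CO2 took a larger share with EB, and MT-ND4L, MT-ND5 and MT-CYB a smaller one. The share of MT-ND4L was 6.81%, 7.09%, 7.31% and 6.85% with DMSO and 4.05%, 4.48%, 2.65% and 3.05% with EB. MT-CO2, which encodes the subunit of complex IV that receives electrons from cytochrome c, took 18.0% ± 0.328 (SD, n = 4) with DMSO and 21.0% ± 0.748 with EB. For MT-ND5 the shares were 2.24% ± 0.070 and 1.65% ± 0.209, and for MT-CYB 3.49% ± 0.215 and 3.11% ± 0.127. DMSO replicate 4, whose mitochondrial share was far above the others, lay within 6.81% to 7.31% for MT-ND4L like the other DMSO libraries. It also lay among them for MT-CO2. In MT-ND1, MT-ND3, MT-ND5, MT-ND6 and MT-CYB it was the DMSO library closest to the EB libraries. For MT-ND1 its share was 5.07%, beside 4.10% to 4.25% in the other DMSO libraries and 5.23% or more with EB. In MT-CYB the lowest DMSO share, 3.26%, and the highest EB share, 3.24%, nearly met.

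Neighbouring genes differed in this respect. MT-ND4L and MT-ND4 are carried on 1 messenger and overlap, yet the TPM of MT-ND4L over that of MT-ND4 was 0.966, 0.997, 0.990 and 0.834 with DMSO and 0.528, 0.584, 0.352 and 0.386 with EB. The groups were far apart. MT-ND6 lies directly behind MT-ND5 and is encoded on the other strand. Its ratio to MT-ND5 was between 0.653 and 0.814 with DMSO and between 1.02 and 1.63 with EB. Whether the authors' counting used the strand is not stated, so reads of MT-ND6 and of RNA from the opposite strand cannot be told apart. MT-CO1 over MT-CO2 was 0.832 ± 0.052 (SD, n = 4) with DMSO and 0.679 ± 0.052 with EB, without overlap. MT-ATP8 over MT-ATP6, the second pair on 1 messenger, was 2.82 ± 0.367 and 2.37 ± 0.346 and the groups overlapped.

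**Figure D5:**
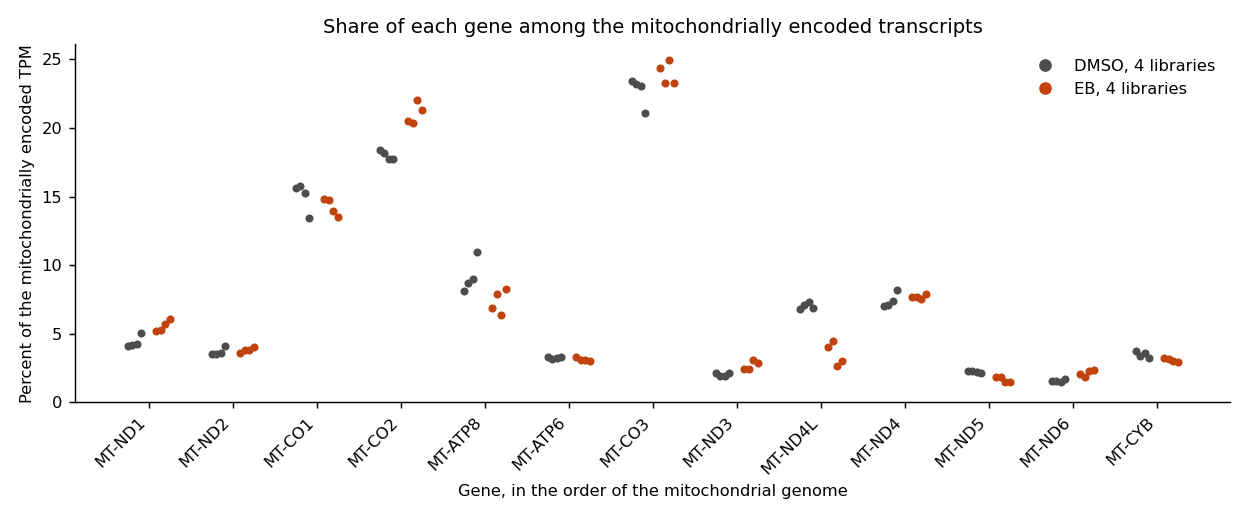
Share of each of the 13 mitochondrially encoded genes in their summed TPM, in percent, for the DMSO and EB libraries in replicate order from left to right, with the genes in genome order. MT-ND4L drops from 6.81% or more to 4.48% or less, and MT-CO2 lies at 20.4% or more with EB and at 18.4% or less with DMSO.

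The overlaps of the pairs MT-ATP8 and MT-ATP6, of 46 bases, and MT-ND4L and MT-ND4, of 7 bases, are shown because reads across them belong to both genes, which makes the values of MT-ATP8 and MT-ND4L, the shortest genes of the set, uncertain. Capitals mark the bases shared by both reading frames, with 10 bases on each side, on the plus strand of hg38.
MT-ATP8 and MT-ATP6, chrM:8517-8582: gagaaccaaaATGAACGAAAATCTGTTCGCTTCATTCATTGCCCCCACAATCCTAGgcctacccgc
MT-ND4L and MT-ND4, chrM:10750-10776: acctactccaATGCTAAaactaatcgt

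The promoters of nuclear members were searched for sequence features that the choice by symbol did not use. Windows of 250 bases before to 50 after the start were matched by symbol for 71 of the 92 nuclear members, with RefSeq sequences on GRCh38.p14. They were searched on both strands for the motifs of factors known to act on such promoters, NRF1 (its palindromic consensus), ETS factors such as GABPA (CCGGAAGT), YY1 (AAGATGGCG), CREB (TGACGTCA) and SP factors (GGGGCGGGG). The letters of NRF1 stood in 26.8% of the member promoters and 6.43% of the 27305 promoters in the table, those of ETS factors in 14.1% and 4.49%, of YY1 in 12.7% and 1.95% and of CREB in 7.04% and 2.05%. SP letters stood in 16.9% and 16.7%. The promoters set beside the members were not limited to genes tested here, and expression of their genes was not considered. Among the 29 matched members called higher, 6 held the ETS letters, 5 NRF1, 1 YY1, 1 CREB and 7 SP. Among the 37 tested and not called higher, these numbers were 4, 13, 8, 4 and 5. These are counts of letters, not of bound sites, and the difference between the groups was not tested.

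The stretches from 120 bases before to 30 after the start are shown for 4 members that rose, for NDUFS1, which fell, and for SDHA, which was not called, with matches to the motifs in capitals. UQCRQ and UQCRH hold the ETS letters at positions −54 and −47 from the start, NDUFA8 a pair of overlapping NRF1 matches at −4 and 3, ATP5F1E the SP letters at −72 and SDHA a repeat of NRF1 matches, of which those at −117, −68 and −19 fall in the stretch. NDUFS1 has ETS letters at −158, outside the stretch.
UQCRQ, chr5:132866522-132866671, plus strand: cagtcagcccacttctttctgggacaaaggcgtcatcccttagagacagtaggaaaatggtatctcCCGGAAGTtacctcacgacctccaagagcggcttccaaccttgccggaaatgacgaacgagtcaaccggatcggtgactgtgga
UQCRH, chr1:46303578-46303727, plus strand: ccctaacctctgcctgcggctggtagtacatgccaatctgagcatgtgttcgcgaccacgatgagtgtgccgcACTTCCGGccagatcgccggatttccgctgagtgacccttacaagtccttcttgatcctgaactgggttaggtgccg
NDUFA8, chr9:122159750-122159899, minus strand: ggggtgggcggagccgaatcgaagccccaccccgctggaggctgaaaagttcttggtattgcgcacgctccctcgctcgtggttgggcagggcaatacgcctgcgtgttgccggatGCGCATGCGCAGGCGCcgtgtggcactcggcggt
ATP5F1E, chr20:59032306-59032455, minus strand: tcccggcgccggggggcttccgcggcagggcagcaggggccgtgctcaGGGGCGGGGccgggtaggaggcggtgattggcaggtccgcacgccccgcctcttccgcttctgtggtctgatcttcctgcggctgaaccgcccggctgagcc
NDUFS1, chr2:206159415-206159564, minus strand: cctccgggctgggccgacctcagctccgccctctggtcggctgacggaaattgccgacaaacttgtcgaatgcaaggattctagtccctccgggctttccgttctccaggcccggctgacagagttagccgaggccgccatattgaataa
SDHA, chr5:218200-218349, plus strand: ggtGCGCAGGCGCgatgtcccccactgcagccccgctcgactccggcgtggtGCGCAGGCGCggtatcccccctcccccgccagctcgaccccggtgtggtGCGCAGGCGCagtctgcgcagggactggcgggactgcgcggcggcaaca

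Other genes of the pathway were counted in the same fit. Of 17 complex I assembly factors tested, 9 were called higher and 1 lower, where 15.2% and 25.1% of all genes were. NDUFAF8, NDUFAF4 and NDUFAF3 had the largest rises, by 1.28, 0.92 and 0.91, and NDUFAF4 went from 9.69 ± 0.295 TPM (SD, n = 4) to 19.2 ± 1.89. Of 24 complex IV assembly factors 10 were higher and 1 lower, with CMC1 at 1.12 and the copper chaperone COX17 at 0.98, while COX18, which inserts the product of MT-CO2 into the inner membrane, fell by 1.31, from 6.47 ± 1.39 TPM (SD, n = 4) to 2.11 ± 1.06. Of the complex II factors 2 of 4 were higher, SDHAF1 by 0.57 and SDHAF4 by 0.44. Of the complex III factors BCS1L, which inserts the Rieske protein, rose by 0.75, TTC19 fell by 0.51 and LYRM7 was not called. Of 8 further ATP synthase genes only ATP5PD, a subunit of the peripheral stalk, was called, at 0.66, a share of 12.5%. After the correction for length and GC content, 6 complex I factors were called higher and 1 lower, and 10 and 1 complex IV factors. For complex II these counts were 1 and 0, for complex III 1 and 1, and for the further ATP synthase genes 1 and 1. Of all genes 24.3% were then higher and 21.8% lower.

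Of 32 genes that replicate, transcribe, process or stabilise mitochondrial nucleic acids, 8 were called higher and 1 lower, where 15.2% and 25.1% of all genes were. These counts moved to 15 and 0 after the correction for length and GC content, where 24.3% and 21.8% of all genes were called. With nuclear genes alone the counts were 4 and 5, where 12.3% and 41.3% of all genes were called. Among the genes called as deposited, SLIRP, HSD17B10 and GRSF1 had the largest changes. SLIRP went from 127.9 ± 12.2 TPM (SD, n = 4) to 257.1 ± 34.1, and the log2 fold changes of HSD17B10 and GRSF1 were 0.63 and 0.60. SLIRP binds mitochondrial messengers together with LRPPRC, and LRPPRC, named here after its value was seen, was the gene called lower, at −0.41, with 87.8 ± 6.97 TPM (SD, n = 4) with DMSO and 66.0 ± 6.30 with EB. With the length and GC trend removed the log2 fold change of LRPPRC turned to 0.06 and was not called. Of 9 tested nuclear regulators of these genes, among them NRF1 and GABPA, PPARGC1B was called lower, at −0.74 with overlapping groups, and no other was called. With nuclear genes alone 4 regulators were called lower and 0 higher, where 41.3% and 12.3% of all genes were. After the correction 2 were called higher and 0 lower, where 24.3% and 21.8% of all genes were. Of 17 electron carriers and enzymes of ubiquinone synthesis 3 were called higher, a share of 17.6% that lies near that of all genes, and with nuclear genes alone 2 were higher and 4 lower. Those higher as deposited were COQ3 by 0.82, ETFB by 0.78 and COQ10B by 0.43, and COQ2, also named after its value was seen, was the 1 gene called lower, at −0.30.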

How the data were processed

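The authors deposited TPM for 20263 genes in 8 libraries, under human Ensembl identifiers, computed within each library. No read counts were used here, so the depth and the counting error are unknown. Per the methods, mRNA libraries were sequenced on an Illumina NovaSeq, trimming, mapping and normalization were done with CLC Genomics Workbench. StringTie and HISAT2 are listed as further tools. The genome is given once as GrCM38 and once as hg38, and why a mouse build is named is not given in the sources used here. Symbols, positions and 1 transcript length per gene came from GENCODE release 44 on hg38, which matched 20148 identifiers.

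A gene was tested where 4 or more libraries had a TPM of 1 or more, by limma 3.58.1 in R 4.3.3 (lmFit and eBayes without trend or block) on log2(TPM + 1), a scale that understates changes of low genes. P-values were adjusted over all 11725 genes tested. For single genes, exact two-sided permutation tests used 70 assignments, with a smallest possible p of 0.0286. The steps were tested on simulated data. Sums and shares were computed per library, with no test. Alternatives to these settings were median-ratio scaling, quantile normalization, nuclear genes alone with rescaled TPM, a pseudocount of 0.1, a minimum TPM of 5 or none, removal of a spline trend on transcript length and GC content (4 degrees of freedom), an intensity trend, a block for the replicate number and each library left out. Plots were drawn with matplotlib 3.10.9.

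The members, lists, genes to be named and alternatives were chosen with earlier results of these data known. Genes named are all mitochondrial members, the up to 5 largest rises and 3 largest falls called in each nuclear group, the SDH subunits, genes with a paralogous partner, readthrough genes, the 3 most abundant nuclear members and up to 3 called genes with the largest change of each further list, beside core subunits and genes marked as named afterwards. The lists were compiled by hand.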

Additional observations from a re-analysis of the deposited data

Results flagged for a closer look

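A library was marked where its gap to the next, divided by the range of its group of 4, was above Dixon's 95% critical value. Of 212 groups of 4 values examined, 17 values were marked, and chance marks about 1 in 20 groups. DMSO replicate 4 gave 13 of the 17. It had the highest TPM of its group for MT-ND1 (19774), MT-ND2 (15883), MT-ND3 (8319), MT-ND6 (6785) and MT-ATP6 (12878), and the highest ratio of mitochondrial to nuclear summed TPM in complex I (29.8), complex III (9.05) and complex V (19.3). It had the lowest TPM of its group for ATP5MC2 (142.1), SDHAF1 (14.5), TTC19 (28.6) and LRPPRC (77.4) and the highest for ATP5MF-PTCD1 (2.29). The other marked values were those of NDUFV2 (175.2) in DMSO replicate 1, of MT-ND6 (4784) and of the readthrough gene NDUFC2-KCTD14 (7.45) in EB replicate 4 and of COX8C (0.290) in DMSO replicate 3, where the 3 other DMSO libraries were at 0. Without DMSO replicate 4 limma called 33 nuclear members higher and 3 lower and 5 mitochondrial members lower. These are 39.8% and 3.61% of the nuclear and 38.5% of the mitochondrial members, where 15.6% of all genes were called higher and 37.0% lower. The mitochondrial share called lower was thus near that of all genes. The mitochondrial median was then −0.41, against −0.20 for all genes tested.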

How the results depend on the processing

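Over all genes tested, median-ratio scaling called 3039 genes higher, quantile normalization 2792 and removal of the length and GC trend 2855, and with nuclear genes alone 4840 were lower. With single libraries left out these counts lay between 1270 and 1826 higher and 2073 and 4333 lower. Median-ratio scaling called 58 nuclear members higher, namely 2 of complex II, 6 of complex III, 4 UQCC genes, 11 of complex IV and 8 of complex V beside complex I, and 1 lower, and 2 mitochondrial members lower. Removal of the length and GC trend called 5 members of complex III and 4 of complex IV higher and 4 nuclear members lower, with a nuclear median of 0.17. Nuclear members called lower were 6 with nuclear genes alone and 0 with no filter, by limma, where 3 had an unadjusted p under 0.05. With no filter 18.8% of the 16142 genes were called lower, and 4109 were lower at that unadjusted threshold. Quantile normalization called 4 UQCC genes higher. With single libraries left out, nuclear members called higher were 23 to 41 and lower 0 to 3, mitochondrial members lower 2 to 7, and members called higher 13 to 20 in complex I, 0 in complex II, 2 to 4 in complex III, 2 to 3 among UQCC genes, 3 to 9 in complex IV and 3 to 5 in complex V. The nuclear median then lay between 0.33 and 0.50, the mitochondrial one between −0.85 and −0.41, the log2 ratio of summed nuclear TPM between 0.31 and 0.49 and that of mitochondrial TPM between −0.94 and −0.42. Same-numbered libraries deviated together in numbers 1 and 4 alone (Pearson's r across genes 0.183, 0.0463, −0.0879 and 0.284 for numbers 1 to 4), so the numbers were not taken to pair the libraries. A replicate block called 49 nuclear members higher, among them 5 of complex III and 4 UQCC genes, and 10 mitochondrial members lower. With the block 19.0% of all genes were called higher and 30.1% lower, beside 15.2% and 25.1% without it. Libraries 2 and 3 did not correlate best with their own number. Of single genes, the log2 fold change turned sign for MT-ND6 without DMSO replicate 4 (0.0416, lowest −0.47 without EB replicate 4), for SDHB with quantile normalization (−0.0901), nuclear genes alone (−0.0351) and the trend removed (−0.16), for SDHC with nuclear genes alone (−0.0274), the trend removed (−0.0963) and without EB replicate 3 (−0.0193, highest 0.26 without EB replicate 4), for UQCRHL with nuclear genes alone (−0.0605), the trend removed (−0.32) and without DMSO replicate 3 (−0.0775, highest 0.21 without DMSO replicate 1), and for ATP5MF with median-ratio scaling (0.0903) and without DMSO replicate 3 (0.0048) or EB replicate 2 (0.0133), with a lowest value of −0.0698 without DMSO replicate 4. Some genes were named in addition, among them core subunits, which are members, and LRPPRC, which is not. Of these the sign turned for NDUFV1 with median-ratio scaling (0.0526) and without DMSO replicates 1 or 2 or EB replicate 4 (−0.30 to 0.12 over single libraries left out). It turned for NDUFS8 (−0.0166) and LRPPRC (0.0551) with the trend removed. For CYC1 it turned with quantile normalization (−0.0647), nuclear genes alone (−0.0375) and the trend removed (−0.12). The sign of ATP5F1B turned likewise (−0.17, −0.0547 and −0.0304) and without DMSO replicate 4 (−0.0326, highest 0.23 without EB replicate 4). That of ATP5F1C turned under the same 3 settings (−0.18, −0.13 and −0.23). Of all these turned values that of ATP5F1C with the trend removed was called, and the cause was not tested. Quantile normalization left MT-CO2 and MT-CO3 at 0, since they held the same ranks in every library. TPM give no depth, so the precision of low genes is unknown.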
